A study of Danio rerio with 19 samples.

Results

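The genes with the most counts in zebrafish tail fin tissue were chosen by their level. The level was given as CPM, the raw count of a gene divided by the total count of its library, times 1000000. The 100 genes with the highest mean CPM over all 19 libraries were taken, and 6 of these were then left out by name, so that 94 of the 32520 genes in the table form the set described here as the members. No gene was added in their place. The libraries came from tail fins of WIK zebrafish embryos at 4 dpf, each from 50 pooled embryos, and all 6 groups were on this background. WT, *yap1* Crispants and *wwtr1* Crispants were each sampled uninjured and 24 h after severe tail fin injury made at 3 dpf, with 3 libraries per group and 4 for injured *yap1* Crispants. A Crispant is a larva that was injected at the start of development with Cas9 and guide RNAs, here against *yap1* (Yap) or *wwtr1* (Taz), and is a mosaic of edited and unedited cells. The sources used here do not give whether the sequenced WT embryos were injected. Severe injury removed the fin together with the tip of the notochord, so an injured library also holds a different piece of tissue from an uninjured one. Because the list was chosen by the mean over injured and uninjured libraries, a gene that is very high in only one of the states could enter through that state.

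The larval tail fin is a thin fold of skin around a sheet of mesenchyme, held out by actinotrichia, which are stiff fibres of collagen and of the actinodin proteins encoded by the *and* genes. Its epidermis is rich in keratins, claudins and annexins, and all of its cells carry the abundant RNAs for ribosomes, actin and mitochondria. After amputation, epidermis closes over the stump, a wound matrix with fibronectin is laid down, and the missing fold is regrown. Yap and Taz are related transcriptional coactivators of the Hippo pathway, which relays cell density and mechanical tension to growth.

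The libraries held 28081131 to 80837847 counts (median 44618000), and the lowest count of any member in any library was 4445, so all 94 passed the filter on low counts. Markers of epidermis and of fin fold mesenchyme were at high levels, but both lists hold members, which were chosen for their level. Their sums are therefore no independent check of the tissue label. Summed CPM of 8 epidermal markers, 4 of them members, was 9013 to 12510 over uninjured and 10120 to 12658 over injured libraries. Fin fold mesenchyme markers (7 found, with and1 and and2 among them) were at 54803 to 104622 CPM uninjured and 22970 to 53732 CPM injured. Nearly all of each sum came from and1 and and2, so that this list mostly repeats these 2 genes. In uninjured WT replicate 1 they held 10.1% of the counts, and the whole list was at 102143 CPM. Of the 9 lists that hold no member, 2 did not overlap between uninjured and injured libraries: 7 notochord markers summed to 1236 to 2546 CPM uninjured and 294 to 1072 CPM injured, and 4 myeloid markers (lyz, lcp1, coro1a and cyba) to 36.6 to 95.1 CPM uninjured and 155 to 243 CPM injured. The other 7 lists, of fast muscle (319 to 1551 CPM uninjured and 200.3 to 1946 CPM injured), red cells, neurons, lens, retina, gut organs and pigment cells, overlapped. Single libraries stood out in some of them. Lens markers were at 65.1 and 25.2 CPM in uninjured WT replicates 1 and 2 and at 85.6 CPM in injured *yap1* Crispant replicate 4, against at most 2.18 CPM in any other library. Red cell markers were at 254 CPM in uninjured *wwtr1* Crispant replicate 1, against 19.5 and 28.4 CPM in the rest of its group. The part of these lists in the results below was not tested. In bulk libraries, fewer cells of a type and less RNA per cell cannot be told apart. Each targeted gene overlapped in RNA level between its own Crispants and WT: yap1 was at 142 to 260 CPM in uninjured *yap1* Crispants against 128 to 272 CPM in uninjured WT, and wwtr1 at 0.572 to 1.08 CPM in uninjured *wwtr1* Crispants against 0.604 to 1.13 CPM in uninjured WT. These counts measure neither the edits nor the protein. By Western blot of pooled larvae, the study reported that Yap1 and Taz protein were nearly absent from their respective Crispants. In uninjured *yap1* Crispants wwtr1 was at 2.17 to 6.45 CPM, above all uninjured WT libraries. After injury it was at 1.01 to 4.14 CPM in *yap1* Crispants and 0.526 to 1.35 CPM in WT, with overlap. For Taz protein, the study reported no change in *yap1* Crispants by Western blot. These blots were of lysates of pooled larvae, younger than the embryos sequenced, and not of tail fins. Injured *yap1* Crispant replicate 4 stood apart from the other libraries of its group, with fin fold mesenchyme markers at 53732 CPM against 28669 to 34747 CPM and 66 members in its own top 100 against 78 to 84. Uninjured *wwtr1* Crispant replicate 1 had the same mesenchyme list at 54803 CPM, against 102213 and 104622 CPM in the other libraries of its group. Some results that rest on these libraries are also given without them.

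Of the 94 members, 92 have a gene symbol. By the fixed lists, 10 encode actin or contractile proteins, 7 are keratins, 7 are translation factors, 6 are cytosolic ribosomal proteins, 5 belong to actinotrichia and extracellular matrix, 5 are chaperones, 5 are membrane or annexin genes, 4 are mitochondrially encoded and 3 are tubulins. One collagen (col17a1a, of the hemidesmosome), 2 chromatin genes (the prothymosins ptmab and ptmaa) and 2 redox or glycolysis genes (gstp1.2 and GAPDHS) were members, and 35 symbols were in no list. CPM are not divided by transcript length, so the order of the members is an order of counts and not of molecules. The 10 members with the highest mean CPM over all libraries were and1 (39959.6 CPM), malat1 (23454 CPM), and2 (18550.1 CPM), apoeb (12535 CPM), ENSDARG00000080337 (12059 CPM), pfn1 (10390.4 CPM), krt1-19e (5967 CPM), si:ch211-276i12.12 (5025 CPM), ENSDARG00000105274 (4832 CPM) and HSPA8 (4348 CPM). and1 and and2 encode actinodins, malat1 is a nuclear long noncoding RNA, apoeb is an apolipoprotein E of lipid transport, pfn1 is a profilin that binds actin monomers, krt1-19e is an epidermal type I keratin and HSPA8 is the constitutive cytosolic Hsp70. At the threshold of the choice, rpl32 (866.8 CPM) and eif5a (866.7 CPM) were the last members inside, and cldn23.1 (853.2 CPM) and spint2 (848.1 CPM) the first genes outside.

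The members held a smaller share of the counts after injury in all 3 genotypes. In uninjured WT they held 30.1%, 31.1% and 30.2% of the counts (mean 30.4% ± 0.562, SD, n = 3), and in injured WT 23.6%, 25.1% and 24.3% (24.3% ± 0.753, SD, n = 3), a difference of -6.10 percentage points. In *yap1* Crispants the share was 29.6%, 31.0% and 30.3% uninjured and 23.6%, 23.6%, 25.7% and 26.8% injured, a difference of -5.38 points that was -6.00 points without injured replicate 4. In *wwtr1* Crispants it was 31.8%, 31.0% and 30.7% uninjured and 23.6%, 25.0% and 24.0% injured, a difference of -6.96 points. Uninjured and injured libraries did not overlap in any genotype. Between genotypes the libraries overlapped in all 4 comparisons of the share: *yap1* Crispants minus WT was -0.15 points uninjured and 0.58 points injured, and *wwtr1* Crispants minus WT was 0.73 points uninjured and -0.13 points injured. With the 6 genes left out put back, the uninjured share was 40.3% to 42.5% in WT, 43.6% to 47.6% in *yap1* and 44.3% to 44.4% in *wwtr1* Crispants, without overlap between WT and either Crispant, while the injured groups overlapped. As the members were chosen with these levels known, the shares carry no test.

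Of the members, the 2 leading actinodin genes lost the most share. and1 and and2 together held 10.1%, 9.35% and 9.82% of the counts in uninjured WT and 2.47%, 2.79% and 2.28% in injured WT. They held 8.79%, 6.97% and 9.6% in uninjured and 3.35%, 3.06%, 2.81% and 5.33% in injured *yap1* Crispants, with the highest injured value in replicate 4. In *wwtr1* Crispants they held 5.4%, 10.1% and 10.3% uninjured and 3.3%, 2.4% and 2.88% injured, with the lowest uninjured value in replicate 1. No injured library reached any uninjured one within a genotype. Without these genes, a choice made after seeing the data, the other 92 members held 20.7% ± 0.932 of the counts in uninjured and 21.8% ± 0.628 in injured WT (SD, n = 3 each), 1.14 points more after injury. In *yap1* Crispants the same 92 genes held 21.8% ± 1.87 of the uninjured counts (SD, n = 3) and 21.3% ± 1.19 of the injured counts (SD, n = 4), a difference of -0.56 points that was 0.52 points, the opposite direction, without uninjured replicate 2. In *wwtr1* Crispants they held 22.5% ± 3.36 uninjured and 21.3% ± 1.12 injured (SD, n = 3 each), a difference of -1.20 points that was 0.74 points without uninjured replicate 1.

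**Figure D1:**
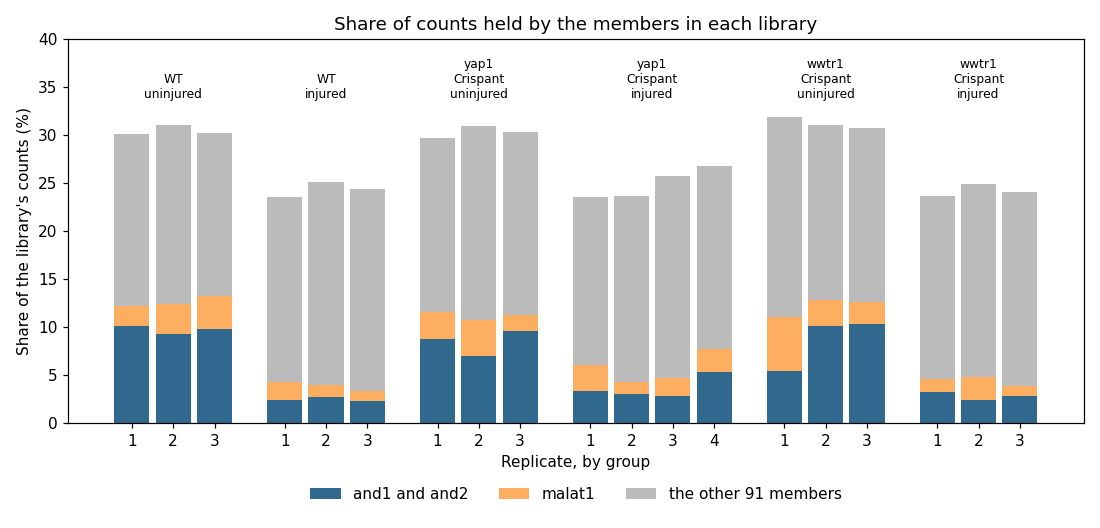
Share of each library's counts (percent, y axis) held by the members, with and1 and and2, malat1 and the other 91 members stacked, for the 19 libraries by group and replicate (x axis). Every injured bar is lower than every uninjured bar, and the and1 and and2 segment goes from 9.35% to 10.1% in uninjured WT to 2.28% to 2.79% in injured WT.

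Taken gene by gene, more members held a larger than a smaller share after injury, while the losses were concentrated in few genes. In WT, 59 members had a higher and 35 a lower mean share after injury, and the rises summed to 6.25 points and the falls to -12.3 points. In *yap1* Crispants 56 were higher and 38 lower (4.38 and -9.76 points), and in *wwtr1* Crispants likewise 56 and 38 (4.62 and -11.6 points). Scaled by total counts, the median log2 fold change in WT, *yap1* and *wwtr1* Crispants was 0.22, 0.08 and 0.18 for members, beside 0.10, 0.30 and 0.32 for all genes tested. With the scaling used for the tests below, 53 members were higher and 41 lower in WT, 35 and 59 in *yap1* Crispants and 33 and 61 in *wwtr1* Crispants. The largest losses in WT were those of and1 (-4.04 points), and2 (-3.20 points), malat1 (-1.49 points) and krt1-19e (-0.70 points). The largest gains were those of apoeb (1.35 points), FN1 (0.53 points), tmem176l.4 (0.28 points) and pfn1 (0.28 points). For 34 members every injured WT library lay above every uninjured one, and for 22 below, against a background of 31.7% and 17.3% of the genes of at least 1 mean CPM. In *yap1* Crispants these counts were 21 and 12 (background 25.8% and 5.13%), and in *wwtr1* Crispants 35 and 20 (background 40.3% and 9.56%). Across the 3 genotypes together, 17 members were higher in all 10 injured libraries than in any of the 9 uninjured ones (background 14.4%). They include FN1, MVP, krt18a.1, HSPA5, HSP90B1, CANX, VCP, ywhaz and eif4a1a. Another 8 were lower in all injured libraries (background 2.49%), namely and2, and3, SPARC, krt1-19e, cyt1, ptgdsb.1, RBP4 and si:dkey-248g15.3. FN1, MVP, HSPA5, HSP90B1, VCP and GLUL were under the mean level of the last member (866.7 CPM) in every uninjured library. and3 and ptgdsb.1 were under it in every injured library. These genes entered through the other state, so both counts rest in part on the choice of the members. The 17 also hold tubb2b and bcl2l16, which could not be separated by count.

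Counts were spread over more genes after injury. The number of genes that together held 50% of the counts was 118 to 248 in the uninjured and 281 to 512 in the injured libraries. The 10 highest genes of each library held 25.5% to 32.4% of the counts uninjured and 15.7% to 20.8% injured. Neither range overlapped. Of the members, 44 were in the top 100 of every library. By mean, 67 were in the top 100 of both states, 8 in that of the uninjured libraries only (among them ptgdsb.1, RBP4, and3, krt17 and NSA2), 18 in that of the injured libraries only (among them FN1, MVP, krt18a.1, HSPA5, HSP90B1, VCP and eif4a1a) and 1 in neither.

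To ask which members changed relative to the rest of the transcriptome, counts were scaled by TMM and tested across 20979 genes with edgeR. A gene was called where its Benjamini-Hochberg adjusted p was under 0.05 and its log2 fold change beyond 1 in either direction. On injury, 14 members were raised and 9 lowered in WT, against 8.24% and 7.79% of all genes tested. In *yap1* Crispants 11 were raised and 12 lowered (background 5.46% and 4.44%), and the *wwtr1* Crispants had 9 raised and 14 lowered members (background 6.26% and 4.74%). The median log2 fold change of the members was 0.07 in WT, -0.20 in *yap1* Crispants and -0.15 in *wwtr1* Crispants, beside medians of -0.06, 0.01 and -0.00 over all genes. Raised in all 3 genotypes were 6 members, FN1, MVP, krt18a.1, HSPA5, HSP90B1 and CANX, and lowered in all 3 were 7, and1, and2, and3, krt1-19e, ptgdsb.1, RBP4 and ENSDARG00000105274. Of these 13 members, 6 were under the mean level of the last member (866.7 CPM) in every library of one state, FN1, MVP, HSPA5 and HSP90B1 uninjured and and3 and ptgdsb.1 injured. They entered the list through the other state, so that the choice of the members used the difference that these calls describe. Of the rest, krt18a.1 and CANX (uninjured medians 782 and 817 CPM) and RBP4 (injured median 666 CPM) were under 866.7 CPM by median. For and1, and2, krt1-19e and ENSDARG00000105274 both medians were above it. Of the further members raised in WT, tubb2b, bcl2l16 and cirbpa had uninjured medians of 721, 716 and 827 CPM. Those of apoeb, tmem176l.4, krt97, s100a10b and ywhaz were above 866.7 CPM. The rates beside all genes thus rest in part on the choice too. Another 63 members were not called in any genotype, and 0 were raised in one genotype and lowered in another. The overlaps of calls between genotypes were counted for the members only. No share over all genes stands beside them, so they are not read as particular to the members. The split of the calls depends on the scale. Scaled by total counts, 20 were raised and 7 lowered in WT (background 10.4% and 5.68%), 13 and 8 in *yap1* Crispants (background 10% and 2.48%) and 15 and 8 in *wwtr1* Crispants (background 11.8% and 2.5%), and the median of all genes moved by 0.16, 0.29 and 0.32 on the log2 scale. The calls in *yap1* Crispants were 6 raised and 11 lowered without injured replicate 4, and without uninjured *wwtr1* Crispant replicate 1, 6 were raised and 9 lowered in *wwtr1* Crispants. Leaving out uninjured *yap1* Crispant replicate 2 also left 6 raised and 9 lowered.

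**Figure D2:**
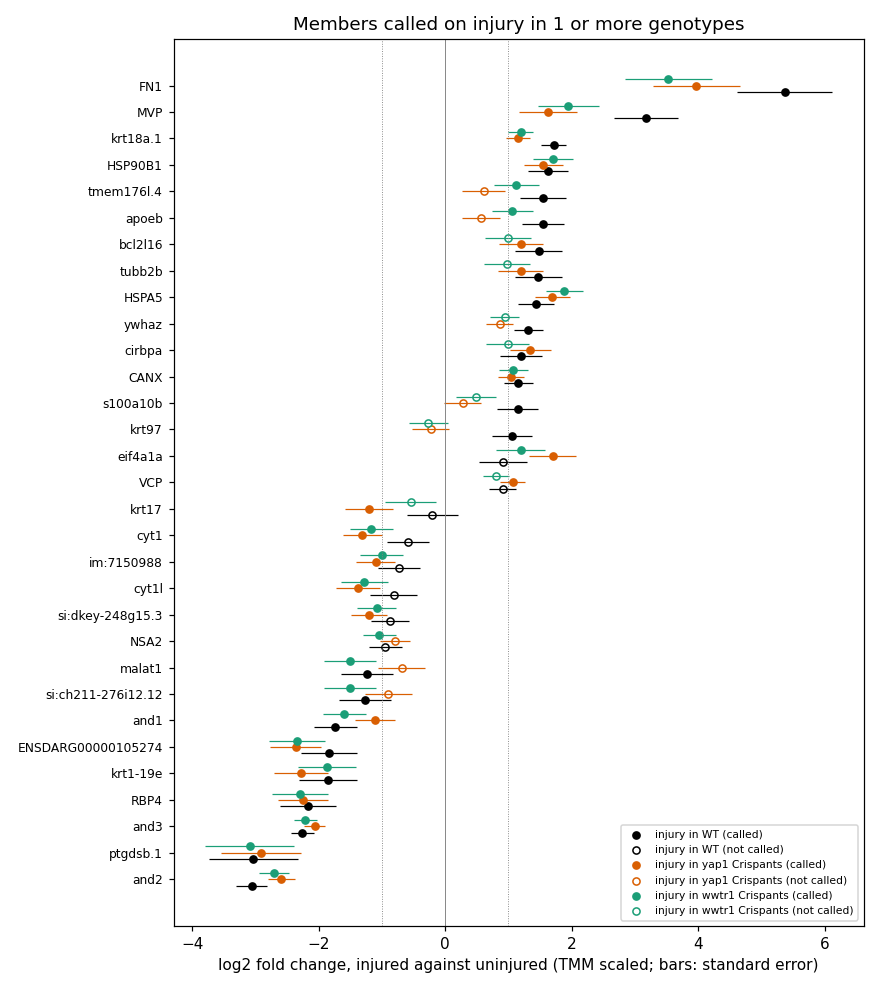
Log2 fold change of injured against uninjured libraries (x axis, TMM scaled, bars are the standard error) for the 31 members called in 1 or more genotypes (y axis, ordered by the value in WT). Filled points were called and open points were not; FN1 has the highest values (5.37 in WT) and and2 the lowest in WT (-3.06).

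Among the matrix genes, all 3 actinodins among the members fell on injury in every genotype. and2 was at 37537, 37171 and 36018 CPM in uninjured and 4791, 5393 and 4539 CPM in injured WT, a log2 fold change of -3.06 (SE 0.24, adjusted p = 7.03e-07). In *yap1* Crispants it was at 34449, 24959.7 and 28471 CPM uninjured and 6008, 7072, 5662 and 4936 CPM injured (-2.59 on the log2 scale, adjusted p = 8.76e-07), and in *wwtr1* Crispants at 20936, 37834 and 37979 and 7489.6, 5305 and 5902 CPM (-2.70, adjusted p = 2.99e-06). The injured and uninjured values of and2 lay far apart in all 3 genotypes. and1 was at 63412, 56281 and 62204 CPM in uninjured and 19912, 22503 and 18240.0 CPM in injured WT (log2 fold change -1.74, SE 0.34, adjusted p = 0.00144). In *yap1* Crispants and1 was at 53439.6, 44782 and 67546 CPM uninjured and 27451, 23500.0, 22479 and 48390.5 CPM injured (-1.11, adjusted p = 0.0192). Here injured replicate 4, at 48390.5 CPM, lay above uninjured replicate 2. The call of and1 in *yap1* Crispants was lost without uninjured replicate 3 (-0.88) or injured replicates 2 or 3 (-0.98 and -0.99) and under total count scaling. A fit of only the groups compared lost it as well (-1.10, adjusted p = 0.122). In *wwtr1* Crispants and1 changed by -1.60 (adjusted p = 0.00355). The third actinodin, and3, was at 1429, 1877 and 1794 CPM in uninjured and 357, 439 and 382 CPM in injured WT, with log2 fold changes of -2.26 in WT, -2.06 in *yap1* Crispants and -2.21 in *wwtr1* Crispants (adjusted p = 7.08e-07, 8.76e-07 and 1.46e-06).

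The 2 leading actinodins did not fall in step. Within a library, the ratio of and1 to and2 counts was 1.51 to 1.73 in uninjured and 4.02 to 4.17 in injured WT. It was 1.55 to 2.37 in uninjured and 3.32 to 9.80 in injured *yap1* Crispants, where replicate 4 gave 9.80 and the other replicates at most 4.57, and 1.58 to 1.72 in uninjured and 3.41 to 3.89 in injured *wwtr1* Crispants. As a ratio within a library it does not depend on the scaling, and the states did not overlap in any genotype. SPARC, a matricellular glycoprotein that binds collagen, had log2 fold changes of -0.72, -0.87 and -0.85 in WT, *yap1* and *wwtr1* Crispants (adjusted p = 0.0161, 0.0044 and 0.00863) and stayed short of the fold threshold. Of all 89 tested genes of the matrix list, 22 were raised and 22 lowered in WT, 22 and 13 in *yap1* Crispants and 21 and 15 in *wwtr1* Crispants. Of 55 tested collagens 1 was raised and 20 were lowered in WT, 0 and 17 in *yap1* Crispants and 1 and 17 in *wwtr1* Crispants, beside col17a1a, the member, which was not called in any. The marker sums of the notochord given above were also lower in all injured libraries. That list itself holds the collagens col8a1a and col9a2. Its relation to the other collagens and matrix genes was not tested.

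FN1 (ENSDARG00000006526), a fibronectin of the provisional wound matrix, had the largest rise of all members. It was at 175, 113 and 55.0 CPM in uninjured and 8832, 4077 and 3191 CPM in injured WT, a log2 fold change of 5.37 (SE 0.75, adjusted p = 8.05e-05). In *yap1* Crispants it was at 86.0, 93.7 and 662 CPM uninjured and 10394, 3986, 3783 and 4852 CPM injured (3.97, SE 0.69, adjusted p = 0.000756), and in *wwtr1* Crispants at 263, 342 and 356 and 5832, 3565 and 4574 CPM (3.53, SE 0.69, adjusted p = 0.00188). No injured value overlapped an uninjured one, and in each uninjured group FN1 was below the threshold level of the list. MVP, the major vault protein, showed the same order of states. Its CPM were 170.0, 124 and 176 in uninjured and 2130.2, 1541 and 1119.7 in injured WT (3.17, adjusted p = 0.000224), 135, 301 and 827 and 2082, 1282, 1251 and 1936 in *yap1* Crispants (1.62, adjusted p = 0.0193) and 423, 239.8 and 295 and 2001, 1133 and 1530.1 in *wwtr1* Crispants (1.95, adjusted p = 0.00923). The states did not overlap, although the call in *yap1* Crispants was lost without uninjured replicates 1 or 2 (1.18 and 1.42, adjusted p = 0.0583 and 0.104). It was also lost when only the groups compared were fitted (1.65, adjusted p = 0.106).

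**Figure D3:**
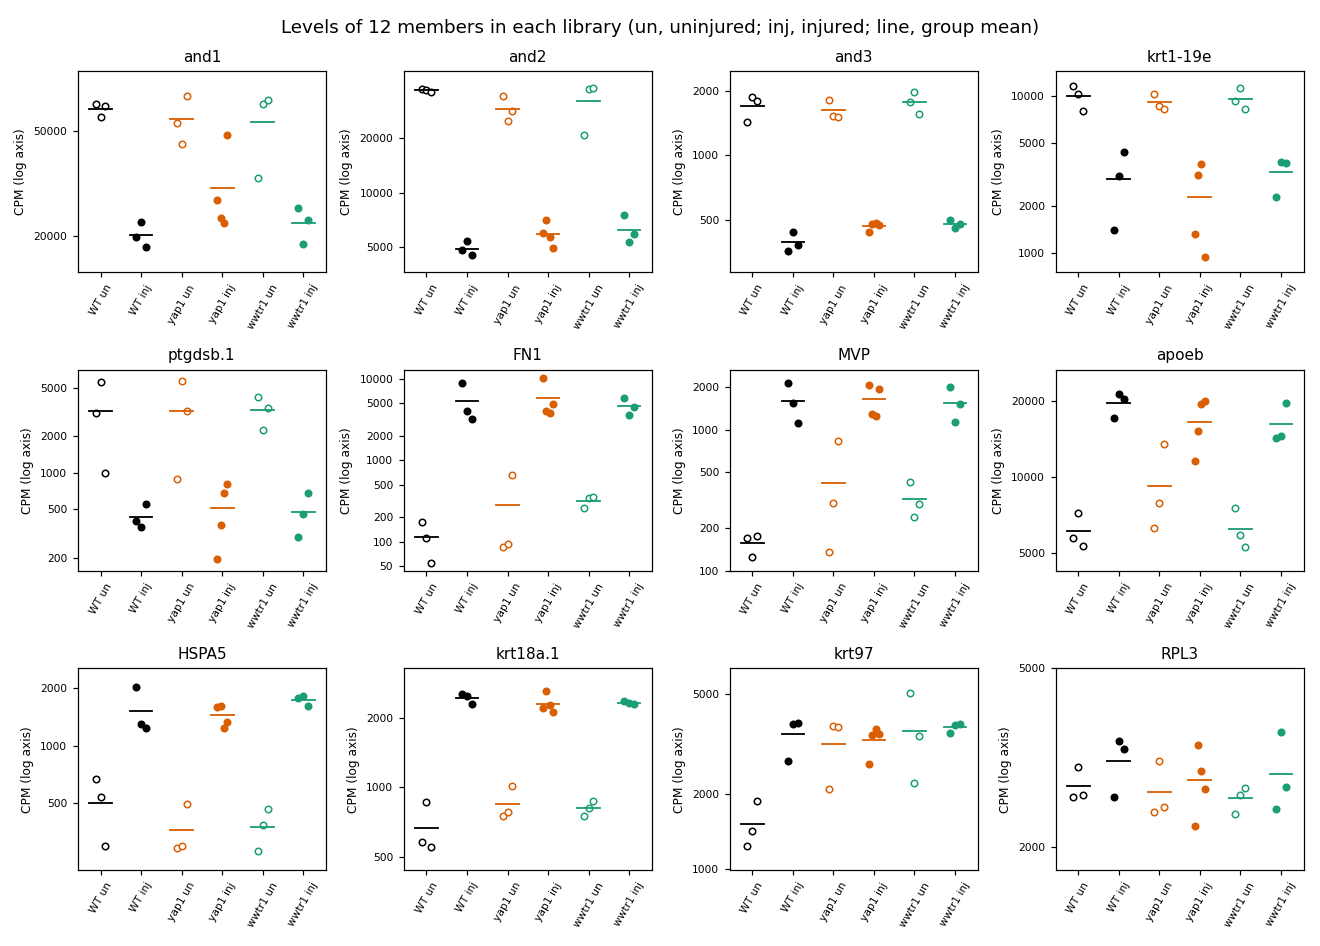
CPM of 12 members (y axis, log scale, a scale for each gene) in each library of the 6 groups (x axis; open points uninjured, filled points injured, lines are group means). The actinodins, krt1-19e and ptgdsb.1 are lower in the injured libraries of each genotype, except that and1 in injured *yap1* Crispant replicate 4 (48390.5 CPM) is above 1 uninjured library of that genotype, FN1, MVP, HSPA5 and krt18a.1 are higher in the injured libraries of each genotype, while RPL3 overlaps between states, and krt97 is lower in uninjured WT (1245 to 1872 CPM) than in the other 5 groups.

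Keratins, the intermediate filaments of the epidermis, moved in both directions. The 7 members of this class held 1.77% to 2.11% of the counts in uninjured and 1.02% to 1.70% in injured WT, 2.06% to 2.38% and 0.98% to 1.60% in *yap1* Crispants and 2.13% to 2.84% and 1.31% to 1.66% in *wwtr1* Crispants. krt1-19e was the most abundant keratin among them by count and fell in all 3 genotypes, from 11516, 10304 and 7952 CPM in uninjured to 1397, 3094 and 4386 CPM in injured WT (-1.86, SE 0.46, adjusted p = 0.00697). In *yap1* Crispants it was at 10268, 8649.9 and 8264 and 1315, 3139.5, 3691 and 942 CPM (-2.28, adjusted p = 0.00127) and in *wwtr1* Crispants at 9223, 11228 and 8251 and 2255, 3792 and 3710.0 CPM (-1.87, adjusted p = 0.00947). Its states did not overlap in any genotype. krt18a.1, a simple epithelial type I keratin that pairs with keratin 8, rose instead, from 582, 865 and 549.6 CPM in uninjured to 2526, 2482 and 2287 CPM in injured WT (1.71, SE 0.20, adjusted p = 1.67e-05), with log2 fold changes of 1.15 in *yap1* and 1.19 in *wwtr1* Crispants (adjusted p = 0.000522 and 0.000538). krt8 had a lower level after injury, with log2 fold changes of -0.57, -0.79 and -0.82 (adjusted p = 0.0195, 0.00206 and 0.00263), short of the fold threshold. The type I keratins cyt1 and cyt1l were lowered in *yap1* (-1.31 and -1.38) and *wwtr1* Crispants (-1.17 and -1.28), with values of -0.59 and -0.81 in WT that were not called. Their calls in *wwtr1* Crispants were lost without uninjured replicate 1 (-0.88 for cyt1 and -0.90 for cyt1l), injured replicate 1 (-0.96 and -1.08) or injured replicate 2 (-1.25 and -1.29), and the call of cyt1l in *yap1* Crispants without uninjured replicate 2 (-1.22, adjusted p = 0.0554). krt17 was lowered in *yap1* Crispants (-1.21, adjusted p = 0.0349; -0.21 in WT and -0.55 in *wwtr1* Crispants, not called), a call lost in 4 of 7 fits that each left out 1 library. Of all 22 tested keratins, 3 were raised and 4 lowered in WT, 2 and 10 in *yap1* Crispants and 2 and 7 in *wwtr1* Crispants.

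Of the 5 chaperones among the members, 3 were raised in each genotype. These 3 (HSPA5, HSP90B1 and CANX) are chaperones of the endoplasmic reticulum, which fold secreted and membrane proteins. HSPA5 and HSP90B1 were under the mean level of the last member (866.7 CPM) in every uninjured library and entered the list through the injured ones. The count of 3 thus rests in part on the values used to choose the members. HSPA5 (BiP) was at 668, 535 and 298 CPM in uninjured and 2032, 1302 and 1234 CPM in injured WT (1.44, SE 0.29, adjusted p = 0.00154), and changed by 1.69 in *yap1* and 1.88 in *wwtr1* Crispants (adjusted p = 0.000492 and 0.000271). HSP90B1 (GRP94) was at 593, 332 and 251 CPM in uninjured and 1549.8, 1284 and 1209 CPM in injured WT, with log2 fold changes of 1.63, 1.55 and 1.70 in WT, *yap1* and *wwtr1* Crispants (adjusted p = 0.00142, 0.00211 and 0.00142). CANX (calnexin) followed with 1.16, 1.04 and 1.08 (adjusted p = 0.00126, 0.00273 and 0.0029). For all 3 the injured libraries lay above the uninjured ones in every genotype, and their summed level was 1122 to 2425 CPM in the uninjured and 4413 to 6273 CPM in the injured libraries. The Crispant calls of CANX sat at the fold threshold and were lost without uninjured *yap1* replicates 1 (0.85) or 2 (1.00), injured *yap1* replicate 4 (1.00), uninjured *wwtr1* replicate 1 (0.93) or injured *wwtr1* replicate 3 (0.98), while the adjusted p stayed at 0.0204 or lower. The other 2 members of the class, both cytosolic, were not called in any genotype. HSPA8 (ENSDARG00000068992) was at 4592, 4880.1 and 4076 CPM in uninjured and 4349, 4648 and 4113 CPM in injured WT (-0.20, adjusted p = 0.482), with overlapping libraries, and had -0.11 in *yap1* and -0.15 in *wwtr1* Crispants (adjusted p = 0.739 and 0.664). HSP90AB1 had -0.04, 0.10 and 0.11 (adjusted p = 0.918, 0.762 and 0.766). By CPM, unscaled, HSP90AB1 was higher without overlap in the injured libraries of both Crispants and HSPA8 in those of *wwtr1* Crispants. Of 74 tested genes of the chaperone list, 11 were raised and 2 lowered in WT, 14 and 0 in *yap1* Crispants and 11 and 1 in *wwtr1* Crispants. VCP, the segregase that extracts proteins for degradation, was raised in *yap1* Crispants (1.06, adjusted p = 0.0015), with 0.91 in WT and 0.80 in *wwtr1* Crispants (adjusted p = 0.00465 and 0.0138). Its call rested on injured *yap1* replicate 4 (0.81 without it). VCP too was under 866.7 CPM in every uninjured library (591 to 862 CPM) and entered the list through the injured ones.

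apoeb rose in WT, from 5717, 7169 and 5335 CPM uninjured to 17114, 21339 and 20416 CPM injured (1.55, SE 0.33, adjusted p = 0.00269), without overlap. In *wwtr1* Crispants it was at 7514, 5895 and 5284 and 14311, 14563 and 19718 CPM (1.06, adjusted p = 0.0327), and that call was lost without uninjured replicates 2 or 3 (1.02 and 0.96) or injured replicates 2 or 3 (1.12 and 0.86). In *yap1* Crispants it was at 6254, 7898 and 13476 and 11511, 15183, 19387 and 20082 CPM (0.57, adjusted p = 0.229), where uninjured replicate 3 lay above injured replicate 1 and the gene was not called. apoeb is also known from macrophages, and the summed level of the 4 myeloid markers given above was higher in every injured library. That list also named mpx and mpeg1.1, which were not found by symbol. The sum thus leaves out mpeg1.1, the macrophage marker of the study's reporter lines. The part of these cells in the level of apoeb was not tested. RBP4, the carrier of retinol, fell from 2954, 3500.1 and 1894 CPM in uninjured to 443, 665 and 923 CPM in injured WT (-2.17, adjusted p = 0.00181), and by like amounts in *yap1* (-2.25) and *wwtr1* Crispants (-2.30; adjusted p = 0.000925 and 0.00167). ptgdsb.1, a prostaglandin D synthase of the lipocalin family, was at 3116, 5649.8 and 989.8 CPM in uninjured and 403, 354 and 551 CPM in injured WT. Its log2 fold changes were -3.04 (SE 0.70), -2.91 and -3.10 (adjusted p = 0.00468, 0.00403 and 0.00587). Both genes were lower in every injured library than in any uninjured one, though ptgdsb.1 was the member that varied most among the uninjured WT libraries (coefficient of variation 71.7%, against a median of 13.8% over the members).

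Other raised members in WT were tmem176l.4 (1.55, adjusted p = 0.0049), ywhaz (a 14-3-3 protein, 1.31, adjusted p = 0.000577), cirbpa (an RNA-binding protein, from 827, 933 and 723 CPM to 2534, 1979 and 1865 CPM, adjusted p = 0.0153), s100a10b (a partner of annexin A2, 1.14, adjusted p = 0.014) and krt97 (1.05, adjusted p = 0.0223). tmem176l.4 went from 969, 1704 and 1171 CPM in uninjured to 3139, 4277 and 4960.3 CPM in injured WT, without overlap. The calls of cirbpa, s100a10b and krt97 in WT were each lost in 1 or more fits that left out 1 library: cirbpa without uninjured replicates 1 or 3 (adjusted p = 0.0503 and 0.0579), s100a10b without uninjured replicate 1 or injured replicate 3 (0.0665 and 0.0601), and krt97 without uninjured replicates 1 or 2 or injured replicates 2 or 3 (0.0703 to 0.0964). In *yap1* Crispants cirbpa was also raised (1.35, adjusted p = 0.00797), a call lost without injured replicate 4 (0.82) or uninjured replicate 2 (1.19, adjusted p = 0.0538), and tmem176l.4 was raised in *wwtr1* Crispants (1.12, adjusted p = 0.0376), a call that 5 of 6 fits without 1 library did not make.

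tubb2b, a beta-tubulin, and bcl2l16, whose symbol places it in the Bcl-2 family, could not be separated by count. In all 19 libraries their counts were nearly equal, with a ratio of 0.984 to 1.01 and a median of 0.997, and their difference matched counting noise (squared difference over its counting variance 1.01 per library). The reads of both are therefore uncertain, and they stand for 1 measurement. tubb2b (ENSDARG00000098591) was at 944, 723 and 702 CPM in uninjured and 2426, 1983 and 2887 CPM in injured WT (1.47, adjusted p = 0.00761), and bcl2l16 gave 1.48. With the pair counted once, 13 members were raised in WT and 10 in *yap1* Crispants. In *yap1* Crispants tubb2b had 1.19 (adjusted p = 0.0257), and this call was lost without uninjured replicates 1 or 2 (0.95 and 1.05) or injured replicate 4 (0.78). The 3 tubulins of the members held 0.24% of the counts in uninjured and 0.53% in injured WT, with tuba5 at 0.96 (adjusted p = 0.00512), short of the fold threshold.

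malat1 and si:ch211-276i12.12 varied together (Pearson correlation of log2 CPM 0.956 over 19 libraries). Other pairs of members correlated more closely, among them CANX and HSP90B1 (0.991) and and2 and and3 (0.980). The ratio of si:ch211-276i12.12 to malat1 was 0.12 to 0.23, with a median of 0.22 and the lowest value in injured *yap1* Crispant replicate 4. malat1 was at 21000.4, 30840.2 and 34408 CPM in uninjured and 18263, 11911 and 11297 CPM in injured WT (-1.23, SE 0.41, adjusted p = 0.0359). In *wwtr1* Crispants it was at 56937, 26682 and 22827 and 13077, 23991 and 9773 CPM (-1.50, adjusted p = 0.0177), and in *yap1* Crispants at 28318, 37971 and 16224 and 27074, 12702, 18773 and 23553 CPM (-0.69, adjusted p = 0.228). Its libraries overlapped between the states in both Crispants. Both calls of malat1 depended on single libraries: in WT it was lost without uninjured replicates 2 or 3 or injured replicates 2 or 3 (-1.07 to -1.18), and in *wwtr1* Crispants without uninjured replicate 1 (-0.99) or injured replicates 1 or 3 (-1.36 and -1.27). In WT it was also lost under total count scaling. si:ch211-276i12.12 had -1.27 in WT and -1.51 in *wwtr1* Crispants, and its calls were lost without the same libraries.

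Of the members without a symbol, ENSDARG00000105274 fell in all 3 genotypes. It was at 5023, 2182 and 9914 CPM in uninjured and 2063, 1852 and 1463 CPM in injured WT (-1.84, adjusted p = 0.00552; -1.15 and 0.0508 without uninjured replicate 3). In *yap1* Crispants it was at 10108, 9882 and 11247 and 3878, 2221, 2404 and 1612 CPM (-2.37, adjusted p = 0.000666), and in *wwtr1* Crispants it changed by -2.34 (adjusted p = 0.00156). ENSDARG00000080337 was not called, with -0.69, -0.70 and -0.40 in WT, *yap1* and *wwtr1* Crispants (adjusted p = 0.15, 0.135 and 0.466). In the Crispants si:dkey-248g15.3 (-1.21 and -1.09) and ENSDARG00000109310 (-1.10 and -1.01) were also lowered. The *wwtr1* calls of these 2 genes were lost in 3 and in all 6 fits without 1 library, and the *yap1* call of ENSDARG00000109310 in 4 of 7. NSA2, a factor of ribosome assembly, was lowered in *wwtr1* Crispants (-1.04, adjusted p = 0.0106), with -0.95 in WT and -0.80 in *yap1* Crispants. That call was lost without injured replicate 1 (-0.94, adjusted p = 0.0516) and under total count scaling (-0.72). NSA2 had an injured median of 698 CPM, under the 866.7 CPM of the last member. Its call too describes a difference used in part to choose the members.

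No ribosomal protein or mitochondrially encoded member was called on injury in any genotype. The 6 ribosomal proteins among the members held 0.85% of the counts in uninjured and 1.11% in injured WT, and the most abundant by count, RPL3, was at 2578, 3016 and 2604 CPM uninjured and 2580.1, 3450.3 and 3307 CPM injured (0.04, adjusted p = 0.913). Over the whole table, 0 of 87 cytosolic ribosomal protein genes and 0 of 13 mitochondrially encoded genes were called on injury in any genotype by edgeR or DESeq2. Unadjusted p was under 0.05 for 1, 3 and 0 of the 87 in WT, *yap1* and *wwtr1* Crispants and for 0 of the 13. MT-CO2, a subunit of cytochrome c oxidase, was at 4728, 2845 and 2093 CPM in uninjured and 3517, 2870.4 and 2478 CPM in injured WT (-0.28, adjusted p = 0.606). eef1a1l1, the elongation factor that brings aminoacyl-tRNA to the ribosome, had -0.37 (adjusted p = 0.125), and eif5a 0.05 (adjusted p = 0.863). Of the 7 translation factors among the members, 1 was called, eif4a1a, an RNA helicase of translation initiation, which was raised in *yap1* (1.70, adjusted p = 0.00478) and *wwtr1* Crispants (1.19, adjusted p = 0.0415) and had 0.91 in WT (adjusted p = 0.0963). Its *wwtr1* call was lost in 5 of 6 fits without 1 library. eif4a1a had an uninjured median of 569 CPM, under the 866.7 CPM of the last member, and an injured median of 1652 CPM. The choice of the members thus used in part the difference that its calls describe. Of all 89 tested translation factors, 4 were raised and 4 lowered in WT and in *yap1* Crispants, and 4 and 3 in *wwtr1* Crispants. Of the 10 actin and contractile members 0 were called in any genotype by edgeR or DESeq2, and 3 had an unadjusted p under 0.05 in each. Of all 127 tested genes of that list, 10 were raised and 10 lowered in WT, and 5 and 2 in each of the Crispants. actb1 had a mean of 2573 CPM ± 222 in uninjured and 3587 CPM ± 87.8 in injured WT, and actb2 2771 CPM ± 433 and 2026 CPM ± 225 (SD, n = 3 each). cldni, a claudin of tight junctions, was at 3385, 3777 and 3269 CPM in uninjured and 3628, 3477 and 3471 CPM in injured WT (-0.14, adjusted p = 0.62).

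**Figure D4:**
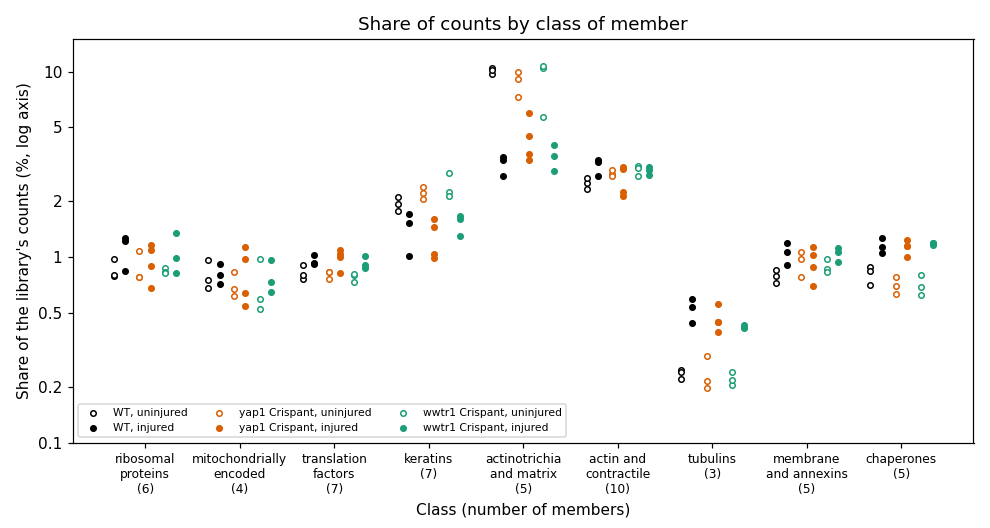
Share of each library's counts (percent, y axis, log scale) held by the members of each class with 3 or more members (x axis, number of members in brackets), with 1 point per library, open for uninjured and filled for injured. Actinotrichia and matrix members go from a mean of 10.1% in uninjured to 3.19% in injured WT, and chaperones and tubulins are higher in the injured libraries of each genotype.

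Between genotypes, 0 members were called by edgeR in any comparison. The Crispant comparisons share the WT libraries. In uninjured *yap1* Crispants against uninjured WT, 2.24% of all genes were called but no member, and 8 members had an unadjusted p under 0.05 (background 10.2%), namely krt97, MVP, FN1, apoeb, krt18a.1, krt8, s100a10b and ENSDARG00000105274. DESeq2 called 2 members there, krt97 and MVP (background 3.45%). In uninjured *wwtr1* Crispants against uninjured WT, 0% of all genes and 0 members were called, 7 members had an unadjusted p under 0.05 (krt97, MVP, FN1, krt8, actb2, cyt1l and CCNG1, background 3.89%), and DESeq2 called 1, krt97 (background 0.103%). In injured *yap1* Crispants against injured WT, 0 members were called (background 0%), 3 had an unadjusted p under 0.05 (PPT1, FOXP4 and tuba5, background 8.25%) and DESeq2 called 0 (background 0.779%). In injured *wwtr1* Crispants against injured WT, 0 were called (background 0%), 0 had an unadjusted p under 0.05 (background 4.99%) and DESeq2 called 0 (background 0.0875%).

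The member nearest to a call was krt97, an epidermal keratin. In uninjured fins its level was 1245, 1419.6 and 1872 CPM in WT, 2101, 3738 and 3704 CPM in the *yap1* group and 5079.6, 2212 and 3413 CPM in the *wwtr1* group. Every uninjured Crispant library lay above every uninjured WT library. The log2 fold change against uninjured WT was 1.23 in *yap1* Crispants (SE 0.32, adjusted p = 0.0504) and 1.32 in *wwtr1* Crispants (SE 0.32, unadjusted p = 0.000635, adjusted p = 0.759 by edgeR and 0.0412 by DESeq2). After injury krt97 was at 2708, 3825 and 3844 CPM in WT, 2638, 3439, 3648 and 3479 CPM in *yap1* Crispants and 3519, 3789 and 3807 CPM in *wwtr1* Crispants, with overlapping groups. MVP had 1.62 in uninjured *yap1* Crispants (adjusted p = 0.0968 by edgeR, 0.0167 by DESeq2) and 1.11 in uninjured *wwtr1* Crispants (adjusted p = 1). FN1 had 1.51 (SE 0.64, adjusted p = 0.392) and 1.58 (SE 0.64, adjusted p = 1). In uninjured *yap1* Crispants the high values of both genes came from replicate 3, at 662 CPM for FN1 and 827 CPM for MVP, against 86.0 and 93.7 CPM (FN1) and 135 and 301 CPM (MVP) in the other libraries. In uninjured *wwtr1* Crispants all 3 libraries of each gene lay above all 3 of uninjured WT. and1 had 0.01 and -0.09 and and2 -0.20 and -0.11 against uninjured WT in *yap1* and *wwtr1* Crispants (adjusted p from 0.888 to 1).

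The injury response of each Crispant was then set against that of WT by an interaction term. No member was called in *yap1* (background 0%) or *wwtr1* Crispants (background 0%) by edgeR, and DESeq2 called 0 in both (background 0.612% and 0.00354%). Unadjusted p was under 0.05 for 6 members in *yap1* Crispants (apoeb, pfn1, krt97, krt18a.1, MVP and CCNG1, background 8.16%) and for 3 in *wwtr1* Crispants (pfn1, krt97 and pfn2b, background 2.78%). For krt97 the difference of the injury response from WT was -1.28 in *yap1* (SE 0.43, adjusted p = 0.394) and -1.32 in *wwtr1* Crispants (SE 0.45, adjusted p = 1). pfn1 was at 8842, 10409 and 8373 CPM in uninjured and 8918, 14212 and 13025 CPM in injured WT, and at 11189.6, 11905 and 11826 and 6128, 10489, 11851 and 5363 CPM in *yap1* Crispants. The difference of its injury response from WT was -1.001 in *yap1* (adjusted p = 0.478) and -0.83 in *wwtr1* Crispants (adjusted p = 1). The same difference for FN1 was -1.40 (SE 0.85, adjusted p = 0.719) and -1.84 (SE 0.89, adjusted p = 1), and for and1 0.63 and 0.14 (adjusted p = 0.775 and 1). The members varied between replicates by a median coefficient of variation of 27.2% in injured *yap1* Crispants and of 11.7% to 18.8% in the other groups.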

How the data were processed

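Bulk RNA-seq was analysed from 19 libraries in 6 groups, as the sample labels give them. The authors deposited raw counts of 32520 genes, made by trimming (Trim Galore), alignment to GRCz11 (BWA-MEM), sorting (SAMtools) and counting against Ensembl genes (HTSeq). Their versions and the use of strand in counting are not given in the sources used here, so overlapping, antisense and near-identical genes are uncertain. Symbols (29201 of 32520 IDs) came from a table of gene IDs. The titles call the replicates biological, and the study's methods define its experimental repeats by a new day of injection or breeding, without naming these libraries.

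The members and gene lists were chosen with earlier results of these data known. CPM used the total of each library. For tests, counts passing filterByExpr (20979 genes) were scaled by TMM and fitted over all 6 groups with edgeR 4.0.16 (quasi-likelihood, robust) in R 4.3.3, and p-values were adjusted over all genes by the Benjamini-Hochberg method. A call required both an adjusted p below 0.05 and a change beyond 1 on the log2 scale. DESeq2 1.42.0 was an alternative. Standard errors were taken from the fold change and its F statistic. Named genes were the 10 highest members, the 6 most raised and 6 most lowered called members on injury in WT, the 4 largest gains and 4 largest losses of share, called members between genotypes, the members and genes nearest to the threshold, and the highest member of each class with 3 or more; further genes were named after their values were seen. The fit was tested on simulated data in which 200 genes were given a log2 change of 2. It recovered 103 with 4 false calls for injury in WT (20644 genes) and 109 with 7 for uninjured *yap1* Crispants against uninjured WT (20615 genes). The 200 genes were drawn from genes of all levels and changed in a single group, with the others left at a common mean. The recovery is therefore no measure of how reliably members, which have high counts, were called. No pair of libraries in a group agreed within sampling noise, and intervals of counting were not used, as reads without molecular identifiers are not independent molecules. Alternatives were RLE and total-count scaling, no low-count filter, a fit of the compared groups alone, a replicate block, other ranking rules and leaving out each library. Some of the highest genes are not reported here.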

Additional observations from a re-analysis of the deposited data

Results flagged for a closer look

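Injured *yap1* Crispants formed the one group of 4 libraries, and 43 measures of the members were screened there for a single library far from the others, by the gap of the end value to its neighbour over the range of the group. The ratio exceeded Dixon's 95% critical value for 3 of them, where chance flags about 1 in 20 (2.15 of 43). For FN1 the ratio was 0.838, with replicate 1 at 10394 CPM and the other libraries at 3783 to 4852 CPM. For tubb2b it was 0.897, with replicate 4 at 3709 CPM and the others at 1847 to 2039 CPM. For eif5a it was 0.898, with replicate 2 at 1074 CPM and the others at 838 to 862 CPM. The causes were not tested.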

How the results depend on the processing

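The difference in the members' share on injury kept its direction in all genotypes and settings tried except those without and1 and and2. Without and1 and and2, chosen after seeing the data, it was 1.14 points in WT, the opposite direction, and -0.56 and -1.20 points in *yap1* and *wwtr1* Crispants, and uninjured *yap1* and *wwtr1* Crispants minus WT 1.15 and 1.86 points. These Crispant values rest on single libraries: without uninjured *yap1* replicate 2 injury gave 0.52 points and the difference from WT was 0.076 points, and without uninjured *wwtr1* replicate 1 they were 0.74 and -0.079 points. Without malat1, also chosen after seeing the data, it was -4.61 points in WT and -4.97 points in *wwtr1* Crispants, and uninjured *wwtr1* Crispants minus WT was 0.053 points. With the 6 genes left out put back, injury gave -7.87, -11.2 and -11.4 points in WT, *yap1* and *wwtr1* Crispants, and uninjured *yap1* and *wwtr1* Crispants minus WT 3.80 and 2.86 points, without overlap. Ranked on uninjured WT alone, injury gave -9.30, -8.04 and -9.43 points; ranked on injured WT alone, -4.75 points in WT and -5.78 points in *wwtr1* Crispants. Leaving out 1 library gave -6.48 to -5.73 points in WT, -6.00 to -4.93 in *yap1* and -7.33 to -6.63 in *wwtr1* Crispants. Refilling the list to 100, ranking by the median and leaving out mitochondrially encoded genes moved no value beyond 1 SD. A ranking per kb was not run, for want of transcript lengths.

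Members called on injury in WT numbered 36 with the adjusted p alone (4942 of all 20979 genes). Without 1 library they numbered 20 to 25 (2516 to 3280 of all genes, against 3363 in the main fit). In *yap1* Crispants the count was 15 when only the groups compared were fitted (1322 of all 19408 genes). It was 15 to 25 without 1 library (15 without uninjured replicate 2), where 1360 to 2316 of all genes were called, against 2078 in the main fit. In *wwtr1* Crispants it was 15 to 20 (15 without uninjured replicate 1), with 1764 to 1964 of all genes called, against 2307. Calls over all genes thus changed along with those of the members. For uninjured *yap1* Crispants against uninjured WT, where the count was 0, RLE size factors and no low-count filter gave 1 (krt97), DESeq2 gave 2 (krt97 and MVP), and leaving out 1 library gave 0 to 2 (2 without uninjured WT replicate 3 or uninjured *yap1* replicate 1). DESeq2 gave 1 (krt97) for uninjured *wwtr1* Crispants against uninjured WT. The uninjured *yap1* comparison had, over all genes, 469 calls with RLE size factors, 427 without the filter and 145 to 634 without 1 library. Over all genes, the same 4 comparisons between genotypes gave 469, 0, 0 and 0 calls by edgeR (uninjured and injured *yap1*, uninjured and injured *wwtr1* Crispants) and 769, 165, 23 and 19 by DESeq2, and the interactions 0 and 0 against 133 and 1. The causes were not tested. Over the named members on injury in WT, 11 of 300 alternative values lost a call, and 0 values of called members changed direction. The 300 include values of members not called in WT, such as HSPA8 and RPL3, which had no call to lose. Of the 23 members called on injury in WT, 17 kept the call in all 6 fits without 1 library.

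Replicate numbers are shared by the groups, and the sources used here do not give whether they pair the libraries. Same-numbered libraries deviated together in 0 of 15 pairs of groups (every correlation over 0.1), with correlations of -0.24 to 0.41, and 10 of 18 libraries correlated best with their own number. These values do not settle whether the libraries are paired, as a weak pairing could miss that limit. A replicate block was also fitted, in which injured *yap1* Crispant replicate 4 carries no weight. It gave 14 members raised and 9 lowered in WT, 7 and 13 in *yap1* and 10 and 14 in *wwtr1* Crispants. Of all 20979 genes, 1835 were raised and 1928 lowered in WT, 1006 and 860 in *yap1* and 1449 and 1191 in *wwtr1* Crispants. For uninjured *yap1* Crispants against uninjured WT, 1 member (krt97) and 517 of all genes were called.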
